A study of Homo sapiens with 9 samples.

Results

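HepG2 cells exposed for 72 h to 2.5 µM tris(2-butoxyethyl) phosphate (TBOEP) were compared with cells given the solvent alone. The comparison rests on 6 of the 9 libraries of the series, the 3 labelled 2.5 µM TBOEP and the 3 labelled control, and on every annotated gene with enough reads to be tested, 12901 of 57773. HepG2 is an established line from a human hepatocellular carcinoma that keeps many functions of the liver cell, and it stands for 1 tumour line, not for hepatocytes in general. The control cultures received 0.1% DMSO, and the TBOEP was given in the same 0.1% DMSO, so that solvent is shared by all groups. The remaining 3 libraries, at 125 µM TBOEP for 72 h, enter where the doses are set side by side and in the estimate of the spread between replicates. Each library came from its own population of cells, seeded, dosed, extracted and sequenced apart from the others. The labels describe both concentrations as not toxic to the cells.

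TBOEP is an organophosphate triester used as a flame retardant, a plasticiser and a floor polish ingredient, and liver cells meet such esters as substrates for hydrolysis, oxidation and conjugation. A liver tumour cell divides, secretes plasma proteins, takes up glucose and runs xenobiotic metabolism at the same time, and each of these tasks leans on its own set of genes. Ribosomal protein genes and the nuclear genes of the respiratory chain encode subunits that are needed in fixed proportions, and their transcripts are short and abundant. Immediate early genes such as EGR1 are transcribed within minutes of growth factor signalling and their RNA decays quickly.

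Throughout, a level is given in CPM (read counts scaled to library size by the trimmed mean of M-values, TMM), and 3 values in a row are libraries 1 to 3 of a group. A gene rose or fell where edgeR's quasi-likelihood test gave an adjusted p under 0.05, Benjamini-Hochberg over the 12901 genes, and changes are log2 fold changes at 2.5 µM against control ± SE. Gene reads numbered 10058205, 4925686 and 4023991 in the controls and 10185870, 11112322 and 2480964 at 2.5 µM, so that 3 reads amounted to 1.21 CPM in the third 2.5 µM library and to 0.270 to 0.746 CPM in the other 5. A principal component analysis of all 9 libraries spread them along its first axis (53.5% of the variance): the scores were -50.0, -24.8 and -34.6 for controls 1 to 3, -9.28, -9.08 and 17.7 for 2.5 µM, and 30.7 to 39.8 for 125 µM. The first control and the third 2.5 µM library were therefore the outermost of the 6 at either end. All 16 liver tumour markers checked were expressed, with a summed level of 76601 to 100180 CPM in the controls and 70879 to 81531 CPM at 2.5 µM. Markers of other cells were scarce: of 10 endothelial genes the sum stayed between 3.36 and 6.46 CPM with KDR at 0 reads, and PTPRC, CD3E, MS4A1, TYROBP and HBB of 16 leukocyte genes, and COL1A2, DCN, LUM and THY1 of 11 fibroblast genes, had 0 reads in all 6 libraries. The leukocyte sum of 2435 to 3081 CPM came almost wholly from LYZ. Fibroblast genes summed to 36.0 to 46.4 CPM. Most of that came from PDGFRB, at a mean of 22.3 CPM in controls and 20.8 CPM at 2.5 µM, and ACTA2, at 20.6 and 17.5 CPM. Bile duct genes summed to 1557 to 2549 CPM, mostly SPP1, with CFTR and MUC1 at 0 reads; KRT19 and ANXA4 were higher and SOX9 lower at 2.5 µM.

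At 2.5 µM, 1425 genes passed the test, 11.0% of those tested: 776 rose (6.02%) and 649 fell (5.03%). Most changes were small, and 123 rises and 121 falls reached 2-fold. The 3 libraries at 2.5 µM lay wholly above or wholly below the 3 controls in 3641 genes (28.2%), and 1310 of the genes that passed were among them. How far the libraries of a group stood apart bore on these counts. Among the 776 rises the third 2.5 µM library was the highest of its group in 542, and among the 649 falls it was the lowest in 521. Likewise the first control was the highest control in 557 of the falls and the lowest in 414 of the rises. Without the first control 213 genes passed (174 higher, 39 lower), without the third 2.5 µM library 468 (323 and 145), and without the third control 707 (411 and 296). With the first control and the third 2.5 µM library both left out, 60 genes passed, 53 higher and 7 lower. Leaving out the second control raised the count to 2050. Rises made up 54.5% of the calls with all libraries, 79.2% of the 216 calls of limma on the deposited RPKM, and 74.9% of its 227 calls on the quantile-normalised values. The plot of calls by library left out shows the same counts.

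**Figure D1:**
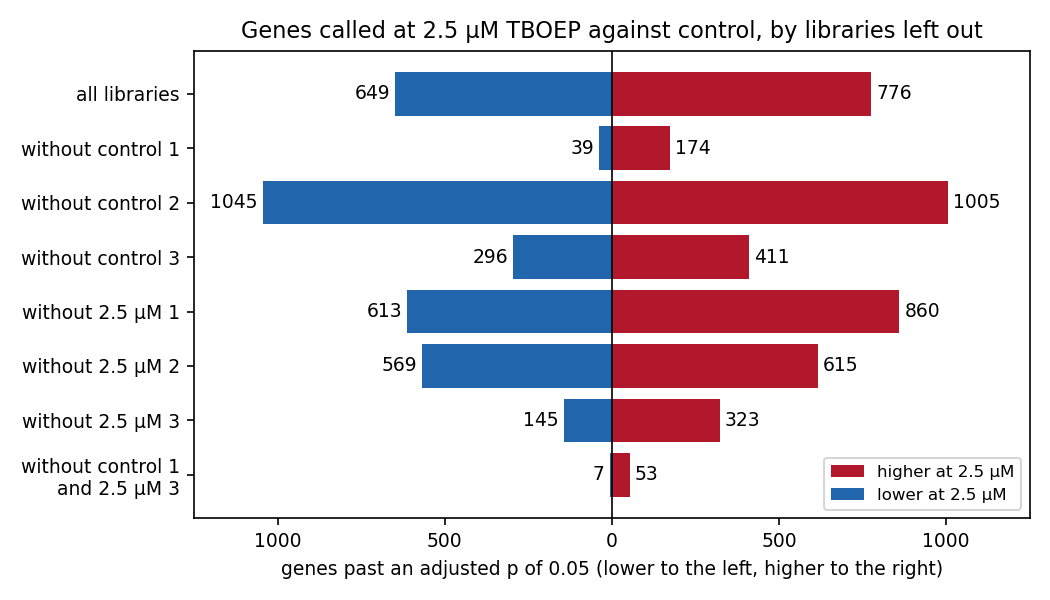
Genes past an adjusted p of 0.05 at 2.5 µM TBOEP against control (x axis, number of genes, lower to the left and higher to the right), with all libraries and with the named libraries left out. With all libraries 776 genes were higher and 649 lower; without the first control these fell to 174 and 39, and without both outermost libraries to 53 and 7.

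A set of 59 genes, 52 higher and 7 lower, passed with all libraries and in each of the 7 fits with libraries left out; this set was picked after the left-out fits were known. The genes named for smallest adjusted p or largest fold were also required to have groups that do not overlap. Their separation was thus set by that choice and adds no support. The strongest rise by adjusted p was that of PTAFR, the receptor for platelet-activating factor (chr1:28473677-28520447, build hg19). PTAFR stood at 2.52, 4.55 and 2.82 CPM in controls and 18.7, 15.7 and 36.4 CPM at 2.5 µM (log2 fold change 2.73 ± 0.33, adjusted p = 0.00455, 6.66-fold). Every 2.5 µM library was above every control, with the third at the top, and PTAFR was the 1 gene whose change exceeded 1.5-fold in edgeR's glmTreat (adjusted p = 0.0344). EDN1 encodes endothelin-1, a secreted vasoconstrictor peptide (chr6:12290596-12297427), and stood at 8.39, 11.9 and 9.49 CPM in controls and 20.5, 30.9 and 39.2 CPM at 2.5 µM (1.56 ± 0.22, adjusted p = 0.00488). Its lowest 2.5 µM library, the first, lay well clear of the highest control, the second. SLC2A3, the glucose transporter GLUT3 (chr12:8071826-8088871), went from 335, 512 and 430.5 CPM to 846, 1093 and 1516 CPM (1.43 ± 0.19, adjusted p = 0.00488). Here too the groups were apart, and the libraries at 2.5 µM spread over a wider range than the controls.

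Among the other rises of this set, the matrix crosslinking enzyme LOX, a lysyl oxidase, stood at 42.6, 58.4 and 52.8 CPM in controls and 106, 102 and 160.4 CPM at 2.5 µM (1.24 ± 0.19, adjusted p = 0.00547). LOXL3 was at 4.30, 4.16 and 5.13 CPM in controls and 11.7, 14.8 and 25.9 CPM at 2.5 µM (1.82 ± 0.29, adjusted p = 0.00553). In both the third 2.5 µM library was the highest, and in neither did the groups overlap. Troponin C of slow muscle, TNNC1, was present at 1.47, 2.77 and 2.82 CPM in controls and 6.22, 8.83 and 15.8 CPM at 2.5 µM (2.05 ± 0.34, adjusted p = 0.00661). GPRC5A, an orphan receptor induced by retinoic acid, was measured at 3.77, 3.76 and 5.39 CPM in controls and 9.08, 14.04 and 14.1 CPM at 2.5 µM (1.53 ± 0.22, adjusted p = 0.00488). MISP, an actin-binding protein of the mitotic spindle, gave 4.19, 4.95 and 4.10 CPM in controls and 10.7, 13.8 and 18.99 CPM at 2.5 µM (1.62 ± 0.22, adjusted p = 0.00488). For these 3 genes the group means were below 20 CPM, and all 3 libraries at 2.5 µM exceeded the highest control, as their selection required. SORL1, a sorting receptor, was more abundant, at 226, 311 and 279.6 CPM in controls and 551, 509 and 681 CPM at 2.5 µM (1.09 ± 0.15, adjusted p = 0.00488). So was GPX3, the glutathione peroxidase of plasma, at 223, 268 and 336 CPM in controls and 516, 502 and 594 CPM at 2.5 µM (0.97 ± 0.14, adjusted p = 0.00488). ASB2, a subunit of a ubiquitin ligase, rose from 2.83, 2.57 and 3.85 CPM to 7.46, 9.67 and 9.70 CPM (1.54 ± 0.22, adjusted p = 0.00488). PLAC8 went from 8.81, 12.5 and 11.8 to 25.2, 25.8 and 37.97 CPM (1.40 ± 0.20, adjusted p = 0.00488). The secreted protein ISM2 reached 92.0, 103 and 144 CPM against 31.03, 48.9 and 40.8 CPM in the controls (1.48 ± 0.21, adjusted p = 0.00488).

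**Figure D2:**
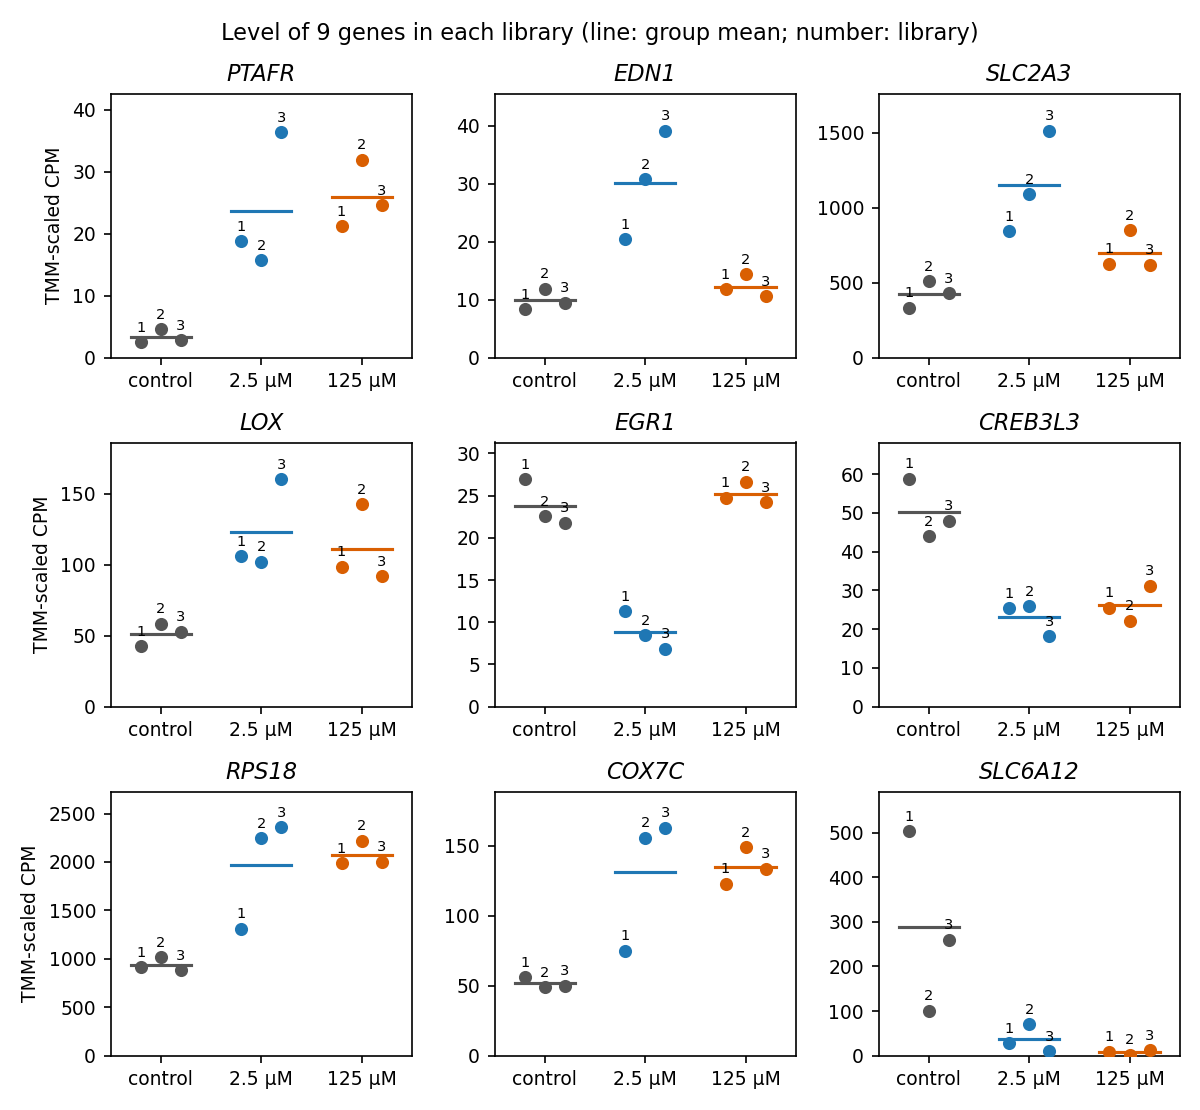
Level of 9 genes (y axis, TMM-scaled CPM from 0) in each of the 9 libraries; points are libraries, numbered 1 to 3 within a group, and lines are group means. PTAFR, EDN1, SLC2A3, LOX, RPS18 and COX7C lie higher and EGR1, CREB3L3 and SLC6A12 lower in all 3 libraries at 2.5 µM than in any control; EGR1 and EDN1 at 125 µM lie near the controls.

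The 7 falls of that set were EGR1, CREB3L3, SPTSSB, HPS4, ANK2, NAPB and OGT. EGR1, a zinc finger transcription factor of the immediate early class (chr5:137801179-137805004), fell to 2.57-fold below the controls: 26.9, 22.6 and 21.8 CPM in controls and 11.3, 8.46 and 6.87 CPM at 2.5 µM (-1.36 ± 0.16, adjusted p = 0.00455). The highest 2.5 µM library, the first, was at 11.3 CPM where the lowest control was at 21.8 CPM. CREB3L3, a membrane-bound transcription factor of the liver that drives fasting and lipid genes (chr19:4153598-4173051), stood at 58.8, 43.9 and 47.97 CPM in controls and 25.3, 25.8 and 18.2 CPM at 2.5 µM (-1.07 ± 0.15, adjusted p = 0.00488). SPTSSB, a small subunit of serine palmitoyltransferase, the first enzyme of sphingolipid synthesis, went from 25.9, 9.89 and 18.2 CPM to 3.35, 5.86 and 0.808 CPM (-2.19 ± 0.37, adjusted p = 0.00675). In the third 2.5 µM library that is below the level of 3 reads. Both groups of SPTSSB varied widely within themselves without overlapping. HPS4, part of a complex for lysosome-related organelles, was at 187, 62.3 and 96.7 CPM in controls and 43.03, 46.2 and 30.7 CPM at 2.5 µM (-1.51 ± 0.28, adjusted p = 0.00830), with the first control far above the other two. OGT, the transferase that puts N-acetylglucosamine on nuclear and cytosolic proteins, stood at 456, 332 and 349.9 CPM in controls and 239, 252 and 177 CPM at 2.5 µM (-0.76 ± 0.13, adjusted p = 0.00728). ANK2, the adaptor ankyrin-2, was at 72.1, 56.6 and 57.2 CPM in controls and 31.5, 41.5 and 29.9 CPM at 2.5 µM (-0.84 ± 0.13, adjusted p = 0.00553).

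The 12 falls of smallest adjusted p were ranked only among genes of at least 5 CPM whose groups do not overlap. Of them, NAPB and NAPG encode the beta and gamma forms of SNAP, which help to take SNARE complexes apart after membrane fusion. NAPB stood at 65.1, 49.7 and 56.4 CPM in controls and 34.6, 34.6 and 27.1 CPM at 2.5 µM (-0.80 ± 0.12, adjusted p = 0.00508). NAPG was at 69.7, 59.6 and 61.3 CPM in controls and 43.3, 43.7 and 34.3 CPM at 2.5 µM (-0.62 ± 0.10, adjusted p = 0.00661). That neither gene had overlapping groups was set by this ranking. MIA3, which loads large cargo such as collagen at exit sites of the endoplasmic reticulum, went from 136, 121 and 121 to 89.03, 93.6 and 85.6 CPM (-0.49 ± 0.08, adjusted p = 0.00670). HNRNPH1, a splicing regulator, went from 756, 719 and 649.8 to 514, 486 and 416 CPM (-0.58 ± 0.10, adjusted p = 0.00728). LYAR, a nucleolar protein, was at 89.7, 66.1 and 73.1 CPM in controls and 44.5, 48.99 and 40.8 CPM at 2.5 µM (-0.76 ± 0.12, adjusted p = 0.00616). NAPEPLD, a phospholipase that makes N-acylethanolamines, was at 37.6, 23.5 and 30.3 CPM in controls and 16.6, 15.5 and 11.3 CPM at 2.5 µM (-1.03 ± 0.17, adjusted p = 0.00675). The last of this rank, TACC1, a centrosomal coiled-coil protein, was at 287, 196 and 242 CPM in controls and 132, 162 and 114 CPM at 2.5 µM (-0.82 ± 0.14, adjusted p = 0.00733). In every gene of this paragraph the first control was the highest of all 6 libraries and the third 2.5 µM library the lowest. With both the first control and the third 2.5 µM library left out, NAPG (adjusted p = 0.0635), MIA3 (0.0711), HNRNPH1 (0.0862), LYAR (0.0505), NAPEPLD (0.0671) and TACC1 (0.0694) no longer passed.

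By size of change, the 10 rises of largest fold with at least 1 CPM on average were led by SLC16A6, of the monocarboxylate transporter family, at 0.210, 0.594 and 0.257 CPM in controls and 1.63, 1.77 and 7.68 CPM at 2.5 µM (2.89 ± 0.80, adjusted p = 0.0340). All its control values were at or below about the level of 3 reads. The value of the third 2.5 µM library was far above the other two, and without it the adjusted p was 0.0526. The adhesion receptor GPR133 stood at 1.36, 5.54 and 1.54 CPM in controls and 14.9, 8.37 and 16.2 CPM at 2.5 µM (2.25 ± 0.43, adjusted p = 0.00891). CELF5, an RNA-binding protein, was at 0.524, 0.396 and 1.03 CPM in controls and 3.63, 1.77 and 2.42 CPM at 2.5 µM (2.11 ± 0.47, adjusted p = 0.0134). ANGPTL2, a secreted protein, was at 0.944, 4.16 and 2.31 CPM in controls and 7.75, 7.71 and 10.1 CPM at 2.5 µM (1.89 ± 0.39, adjusted p = 0.0108). HSD17B8, which takes part in mitochondrial fatty acid synthesis, was at 0.524, 1.19 and 2.31 CPM in controls and 4.88, 4.28 and 4.85 CPM at 2.5 µM (2.03 ± 0.37, adjusted p = 0.00792), with 3 close values at 2.5 µM. The remaining ones, beside PTAFR and TNNC1, were the uncharacterised RP11-683L23.1, RP11-426C22.5 and RP11-473A10.2, the last pair with most or all of their reads in introns. The 10 largest falls, taken by the same rule, had in common controls that lay far apart. PLAU, the urokinase protease, stood at 9.33, 1.98 and 5.90 CPM in controls and 0.383, 1.39 and 0 CPM at 2.5 µM (-2.93 ± 0.56, adjusted p = 0.00891), with 0 reads in the third library. CDH16, a cadherin of kidney, was at 66.8, 9.89 and 33.1 CPM in controls and 9.85, 6.600 and 2.42 CPM at 2.5 µM (-2.39 ± 0.49, adjusted p = 0.0106). RRAD, a small GTPase, was at 10.5, 3.76 and 4.10 CPM in controls and 1.15, 1.58 and 1.21 CPM at 2.5 µM (-2.29 ± 0.41, adjusted p = 0.00792). FUT3, a fucosyltransferase, was at 40.05, 10.1 and 18.5 CPM in controls and 2.58, 7.71 and 0.808 CPM at 2.5 µM (-2.41 ± 0.47, adjusted p = 0.00948). In the third 2.5 µM library FUT3 was below the level of 3 reads. PLAU, CDH16, RRAD and FUT3 showed the same order, with the first control highest and the second lowest. SOWAHA (log2 fold change -2.52 ± 0.50), NYAP1 (-2.54 ± 0.51), AC024592.9 (-2.54 ± 0.56) and the pseudogene GSTTP2 (-2.10 ± 0.42) followed the same pattern, and the last 3 drew 88.96%, 85.9% and 83.8% of their reads from introns. AC024592.9 overlaps FUT3, with which it can share reads. Without the first control, none of PLAU (adjusted p = 0.0693), CDH16 (0.0750), RRAD (0.0522) and FUT3 (0.0619) passed.

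Of 50 gene lists, 49 had at least 1 call. A call was left in 33 of them without the first control, in 39 without the third 2.5 µM library, in 14 without both and in 44 with the 125 µM libraries left out of the fit. The list with the highest share of rises was that of the ribosomal proteins. Of 31 tested genes for proteins of the small subunit 26 rose, with a median log2 fold change of 0.55, and of 46 for the large subunit 37 rose, with a median of 0.53; the median of all tested genes was -0.01. RPS18 stood at 912, 1019 and 883 CPM in controls and 1312, 2244 and 2361 CPM at 2.5 µM (1.07 ± 0.16, adjusted p = 0.00547). RPS12 was at 640.3, 628 and 606 CPM in controls and 857, 1406 and 1516 CPM at 2.5 µM (1.01 ± 0.15, adjusted p = 0.00547). RPS21 was at 308, 262 and 274 CPM in controls and 414, 676 and 682 CPM at 2.5 µM (1.06 ± 0.15, adjusted p = 0.00488). The order was the same in each: controls close together, the first 2.5 µM library above them, and the other two far above. On the large subunit side RPL31 was at 627, 572 and 595 CPM in controls and 819, 1200.2 and 1301 CPM at 2.5 µM (0.89 ± 0.14, adjusted p = 0.00553). RPL10 was at 476, 419 and 414 CPM in controls and 567, 881 and 860.02 CPM at 2.5 µM (0.81 ± 0.13, adjusted p = 0.00661). RPL3, at 1806, 1750.5 and 1792 CPM in controls and 2046, 2287 and 2283 CPM at 2.5 µM (0.31 ± 0.09, adjusted p = 0.0343), rose least of those described here, and RPL4 did not pass (0.25 ± 0.09, adjusted p = 0.0813). Over all small subunit genes the median difference from the control mean was 0.05, 0.01 and -0.09 in the controls and 0.20, 0.76 and 0.68 in the 2.5 µM libraries (log2), and over the large subunit genes 0.22, 0.67 and 0.66 at 2.5 µM. In both lists the first 2.5 µM library lay nearest to the controls.

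Translation of ribosomal protein mRNAs is controlled through the 5′ terminal oligopyrimidine tract. That tract is a C at the very start of the transcript followed by a run of pyrimidines. For that reason the start sites of some members that led the rise are shown, each a start chosen because it has the tract. Other leading members, RPL13, RPL36, RPL10 and RPL23A, are not shown. Each line gives bases -9 to 15 around the RefSeq start (GRCh38.p14, 5′ to 3′ on the gene's strand), with the run that begins at the start in capitals, and the last pair belongs to elongation factor genes with the same feature whose levels did not pass.
RPS21: tagctgcttCCTTTCTCTCTCgcg
RPS18: acttccgctCTCTCTTCCacagga
RPS12: ggatgaggcCTCTTTCCCTgccgc
RPS14: cctcccactCTCTCTTTCCggtgt
RPL31: cttcgcgctCTTCCTTTCCaactt
EEF1A1: gtgaacgttCTTTTTCgcaacggg
EEF2: gtcagcgttCTCTTCCgccgtcgt
These windows lie at chr20:62387094-62387117 (RPS21, plus strand), chr6:33272066-33272089 (RPS18, plus strand), chr6:132814560-132814583 (RPS12, plus strand), chr5:150449725-150449748 (RPS14, minus strand), chr2:101002280-101002303 (RPL31, plus strand), chr6:73521018-73521041 (EEF1A1, minus strand) and chr19:3985449-3985472 (EEF2, minus strand). A start with C followed by at least 4 bases that are each C or T was found for 47 of the 63 ribosomal protein genes that matched the table (74.6%), for 7.50% of 8961 tested genes with an entry, and for 4.07% of all 35116 windows. Of 34 matched translation factor genes, 11 had it. EEF1A1, which delivers tRNA to the ribosome, stood at 3555, 3408 and 3554 CPM in controls and 3549, 4529 and 4310.2 CPM at 2.5 µM (0.24 ± 0.10, adjusted p = 0.135). EEF2, which moves the ribosome along, was at 4850.4, 4416 and 4882 CPM in controls and 4749, 5323 and 5234 CPM at 2.5 µM (0.11 ± 0.09, adjusted p = 0.447). Neither passed.

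Measures of the RNA itself also differed between the libraries, but not throughout in step with these genes. Reads in introns of nuclear genes made up 7.24, 7.22 and 6.14% in the controls and 7.74, 5.33 and 4.93% at 2.5 µM, so the first 2.5 µM library had the highest share and the other two the lowest. That first library had ribosomal medians of 0.20 (small subunit) and 0.22 (large subunit), above those of every control. Across all tested genes, the 3170 with the shortest exons, 207 to 2915 bases in sum, had a median log2 fold change of 0.09, and the median was 0.03, -0.03 and -0.06 in the successively longer groups of 3169, 3169 and 3170 genes. In the shortest group 9.97% of genes rose and 3.00% fell, and in the longest 3.38% rose and 7.67% fell. The part that intron share and transcript length have in the rise of the ribosomal protein genes was not tested. In the fits on exon reads alone 26 small and 37 large subunit genes rose, as with all reads. Without the first control 18 and 24 did, without the third 2.5 µM library 16 and 22, and without both 6 and 6, while the medians over the large subunit genes kept to 0.49 to 0.54.

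Of 43 translation factors 5 rose and 2 fell, 11.6% and 4.65% of the list, with a median of 0.05. EIF6, which keeps the ribosomal subunits apart and takes part in large subunit assembly, went from 78.7, 89.8 and 92.6 to 121, 139.8 and 139 CPM (0.62 ± 0.09, adjusted p = 0.00525). EEF1B2, an exchange factor for elongation factor 1, went from 532, 561 and 509 to 655, 901 and 864 CPM (0.59 ± 0.11, adjusted p = 0.00792). Calls among the translation factors came to 2 higher and 0 lower without the first control (8 higher and 7 lower at an unadjusted p under 0.05 in edgeR) and to 4 higher and 0 lower without the third 2.5 µM library (8 higher and 4 lower). Among 43 nucleolar assembly factors 4 rose and 2 fell, 9.3% and 4.65% of the list beside 6.02% and 5.03% of all tested genes. Calls among the nucleolar factors came to 0 higher and 1 lower without the first control (5 higher and 2 lower at an unadjusted p under 0.05 in edgeR) and to 0 higher and 1 lower without the third 2.5 µM library (7 higher and 4 lower). FBL, the methyltransferase of box C/D particles, was one that rose (0.30 ± 0.09, adjusted p = 0.0383), while NCL (-0.06 ± 0.08, adjusted p = 0.705) and NPM1 (0.23 ± 0.09, adjusted p = 0.115) did not pass. Of 15 small nucleolar RNA host genes, many of which are known to begin with the same tract, 4 rose: GAS5 from 74.9, 66.9 and 68.8 to 92.7, 134 and 135 CPM (0.76 ± 0.13, adjusted p = 0.00670). SNHG16 went from 61.02, 64.5 and 63.6 to 101, 88.8 and 86.4 CPM (0.56 ± 0.09, adjusted p = 0.00553). SNHG5 (0.74 ± 0.17) and SNHG8 (0.68 ± 0.14) were the others. GAS5 repeated the order of the ribosomal genes across libraries, whereas in SNHG16 the first 2.5 µM library was the highest.

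Nuclear genes of the respiratory chain rose with the ribosomal ones. Of 39 subunits of complexes II to V 22 rose (median 0.52) and of 36 subunits of complex I 15 rose (median 0.38), and the rest of both lists did not pass. COX7C, a small subunit of cytochrome c oxidase, stood at 56.2, 49.1 and 50.02 CPM in controls and 74.97, 156 and 163 CPM at 2.5 µM (1.31 ± 0.21, adjusted p = 0.00635), with the first 2.5 µM library between the controls and the other two. ATP5G3, a copy of the ring subunit of ATP synthase, was at 121, 139 and 124 CPM in controls and 172, 244 and 236 CPM at 2.5 µM (0.76 ± 0.12, adjusted p = 0.00553). NDUFA4, long counted with complex I, was at 49.2, 49.1 and 50.8 CPM in controls and 62.4, 94.6 and 83.2 CPM at 2.5 µM (0.68 ± 0.13, adjusted p = 0.00885). Cytochrome c1, CYC1, differed in that its first 2.5 µM library was the highest, at 81.8, 79.9 and 89.8 CPM in controls and 140.5, 106 and 127 CPM at 2.5 µM (0.57 ± 0.10, adjusted p = 0.00792). Of 73 mitochondrial ribosomal proteins 13 rose and 1, MRPS6, fell (-1.50 ± 0.32, adjusted p = 0.0121), with a median of 0.26. MRPS6 overlaps another tested gene, with which it can share reads. Leaving out the first control left rises of 12 subunits of complexes II to V and 6 of complex I, and leaving out the third 2.5 µM library 14 and 9, with medians of 0.37 to 0.48. Calls among the mitochondrial ribosomal proteins came to 0 higher and 0 lower without the first control (23 higher and 1 lower at an unadjusted p under 0.05 in edgeR) and to 6 higher and 1 lower without the third 2.5 µM library.

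The 13 protein genes that the mitochondrion itself encodes had a median below that of all genes. It was -0.25, 3 of them fell, and the other 10 did not pass. MT-ATP8, a subunit of ATP synthase, stood at 1308, 1037 and 1239.8 CPM in controls and 910.1, 904 and 819 CPM at 2.5 µM (-0.44 ± 0.10, adjusted p = 0.0118). MT-ND6, the complex I subunit encoded on the light strand, was at 1328, 1168 and 1333 CPM in controls and 985, 928 and 929 CPM at 2.5 µM (-0.43 ± 0.08, adjusted p = 0.00907). In both, the 3 values at 2.5 µM were close together and below every control. MT-ND5 went from 5606, 5409 and 5904 to 4697, 4147 and 4166 CPM (-0.38 ± 0.10, adjusted p = 0.0242). MT-CO1, the most abundant named here, went from 16870.0, 16421 and 18261 to 14348, 14858 and 14329 CPM without passing (-0.24 ± 0.10, adjusted p = 0.113). In the fit without the first control 1 of the 3 passed, as in that without the third 2.5 µM library. MT-ATP8 overlaps MT-ATP6, with which it can share reads. Reads from the mitochondrial chromosome made up 7.64, 7.58 and 8.64% of gene reads in the controls and 7.18, 7.19 and 6.82% at 2.5 µM. The doses differed in 11 of the 13 genes, where 14.9% of all genes differed; at 125 µM the median was 0.20.

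**Figure D3:**
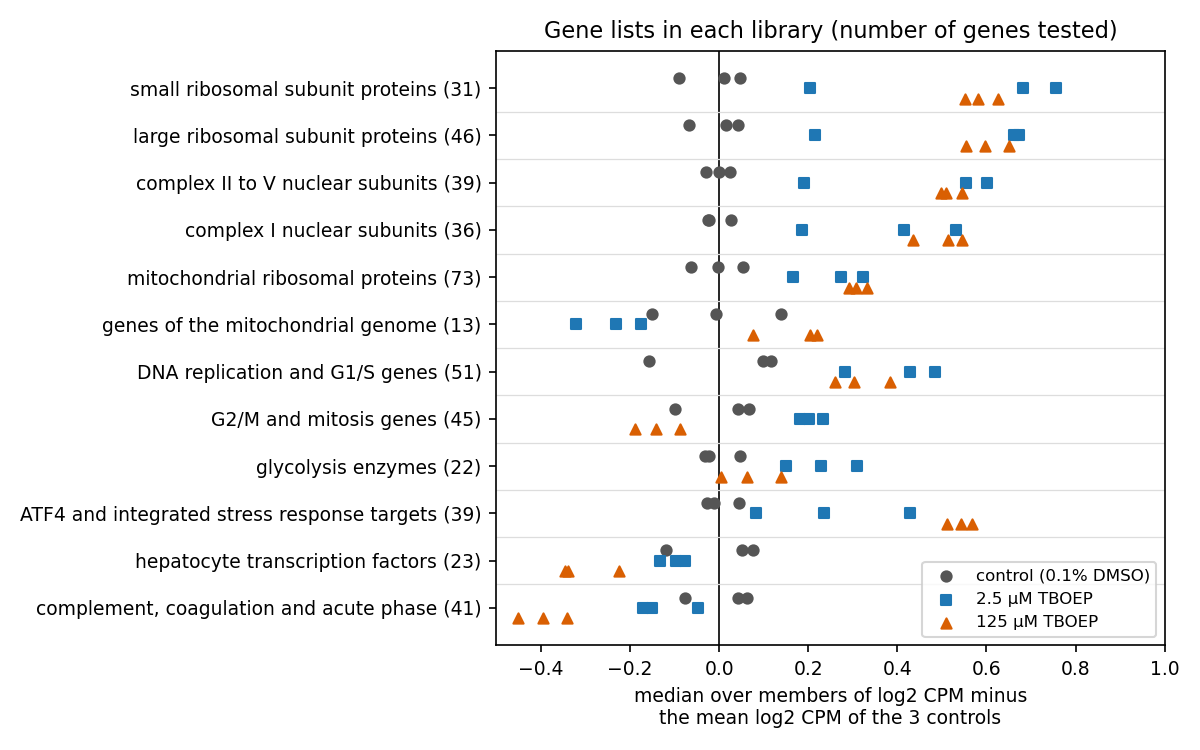
Median over the tested members of 12 gene lists (rows, number of genes in parentheses) of the log2 CPM in a library minus the mean of the 3 controls (x axis); circles are controls, squares 2.5 µM and triangles 125 µM libraries. The ribosomal and respiratory lists put the first 2.5 µM library between the controls and the other two, and the mitochondrial genome list puts all 3 below the control mean.

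Genes of DNA replication and the G1 to S transition rose in 16 of 51 cases, with 1 fall and a median of 0.45. RRM1, the large subunit of ribonucleotide reductase, stood at 29.3, 37.4 and 41.3 CPM in controls and 54.8, 54.4 and 65.4 CPM at 2.5 µM (0.70 ± 0.12, adjusted p = 0.00733). RRM2, its partner, was at 44.1, 55.6 and 54.9 CPM in controls and 78.2, 70.5 and 89.7 CPM at 2.5 µM (0.62 ± 0.11, adjusted p = 0.00792). MCM2, of the replicative helicase, was at 39.1, 57.6 and 53.4 CPM in controls and 76.8, 72.2 and 89.3 CPM at 2.5 µM (0.67 ± 0.14, adjusted p = 0.0107). The transcription factor E2F1 was at 16.4, 17.8 and 20.01 CPM in controls and 29.9, 26.1 and 24.6 CPM at 2.5 µM (0.62 ± 0.13, adjusted p = 0.0101). The first control was the lowest library in all 4, and no 2.5 µM library reached down to a control. PCNA (0.31 ± 0.10, adjusted p = 0.0536), TYMS (0.19 ± 0.10, adjusted p = 0.222) and CCNE1 (0.14 ± 0.18, adjusted p = 0.662) did not pass. Of 45 genes of G2 and mitosis 4 rose, 8.89% of the list beside 6.02% of all tested genes. Among them was CDK1 at 15.8, 26.9 and 21.8 CPM in controls and 34.4, 30.5 and 37.6 CPM at 2.5 µM (0.68 ± 0.16, adjusted p = 0.0190). CCNA2 was at 30.8, 35.2 and 37.2 CPM in controls and 50.2, 44.99 and 49.7 CPM at 2.5 µM (0.50 ± 0.10, adjusted p = 0.0100). MKI67, the usual marker of cycling cells, did not pass (0.01 ± 0.09, adjusted p = 0.956). Calls among the G2 and mitosis genes came to 0 higher without the first control (6 higher at an unadjusted p under 0.05 in edgeR) and to 2 higher without the third 2.5 µM library. Calls among the replication genes came to 3 higher and 0 lower without the first control (18 higher and 1 lower at an unadjusted p under 0.05 in edgeR) and to 9 higher and 1 lower without the third 2.5 µM library. The median of the replication genes was 0.28 without the first control. Of 25 p53 targets 3 fell, 12% of the list beside 5.03% of all tested genes. They were TP53INP1 (-1.10 ± 0.22), ZMAT3 (-0.28 ± 0.08) and PPM1D (-0.45 ± 0.13), and CDKN1A (-0.28 ± 0.11, adjusted p = 0.121) did not pass. Calls among the p53 targets came to 0 lower without the first control (3 lower at an unadjusted p under 0.05 in edgeR) and to 1 lower without the third 2.5 µM library.

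Sugar uptake and glycolysis came next. Of 18 glucose and monocarboxylate carriers 6 rose (median 0.26). SLC2A1, the glucose carrier GLUT1, stood at 377, 344 and 378 CPM in controls and 539.9, 640.2 and 840.2 CPM at 2.5 µM (0.87 ± 0.13, adjusted p = 0.00547). SLC2A2, GLUT2 of the liver cell, was at 7.55, 16.4 and 11.3 CPM in controls and 22.3, 21.2 and 29.5 CPM at 2.5 µM (1.05 ± 0.22, adjusted p = 0.0113). SLC2A1 showed its highest value in the third 2.5 µM library, and SLC2A2 its lowest in the first control. Of the carriers 2 rose without the first control, and without the third 2.5 µM library 3. The urate carrier SLC2A9, with 70.8% of its reads in introns, rose from 49.5, 75.6 and 63.9 to 109.97, 79.5 and 85.2 CPM (0.56 ± 0.15, adjusted p = 0.0310). SLC16A3, a lactate exporter, went from 389, 348 and 385 to 445, 452 and 515 CPM (0.33 ± 0.09, adjusted p = 0.0277). Of 22 glycolysis enzymes 9 rose, with a median of 0.24. TPI1 was at 658, 571 and 653 CPM in controls and 752, 885 and 937 CPM at 2.5 µM (0.45 ± 0.10, adjusted p = 0.0117). GAPDH was at 3789.8, 3446 and 3764 CPM in controls and 4567, 5228 and 5598 CPM at 2.5 µM (0.48 ± 0.10, adjusted p = 0.0121). PGK1 was at 1216, 1301 and 1246 CPM in controls and 1461, 1746 and 1877 CPM at 2.5 µM (0.43 ± 0.10, adjusted p = 0.0154). The lowest 2.5 µM library, the first in each, still lay above the highest control. LDHA (-0.01 ± 0.09, adjusted p = 0.958) and PFKFB3 (-0.10 ± 0.14, adjusted p = 0.699) did not pass. Calls among the glycolysis enzymes came to 1 higher without the first control and to 0 higher without the third 2.5 µM library (10 higher at an unadjusted p under 0.05 in edgeR). The list's median was 0.26 and 0.25 in these fits, and in the latter the adjusted p was 0.0505 for TPI1, 0.0525 for GAPDH and 0.0674 for PGK1.

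Of 32 genes known to respond to low oxygen 10 rose and 1 fell (median 0.24). Beside LOX these include EPO, erythropoietin, at 7.65, 10.5 and 7.44 CPM in controls and 15.7, 13.1 and 16.6 CPM at 2.5 µM (0.81 ± 0.18, adjusted p = 0.0131). BNIP3, a mitophagy receptor, was at 393, 323 and 368 CPM in controls and 422, 526 and 556 CPM at 2.5 µM (0.47 ± 0.11, adjusted p = 0.0185). HIF1A, the regulator itself, was the one that fell: 206, 155 and 181 CPM in controls and 105, 139.8 and 108 CPM at 2.5 µM (-0.61 ± 0.13, adjusted p = 0.0117). VEGFA, a classical target, did not pass, with controls at 468, 315 and 359.7 CPM and 2.5 µM at 394, 384 and 414 CPM (0.05 ± 0.12, adjusted p = 0.817). Calls among the hypoxia genes came to 4 higher and 0 lower without the first control (14 higher and 1 lower at an unadjusted p under 0.05 in edgeR) and to 4 higher and 1 lower without the third 2.5 µM library.

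In the insulin axis 6 of 20 genes rose and 1 fell. The binding proteins of insulin-like growth factors led: IGFBP1 stood at 314, 916 and 578 CPM in controls and 1401, 1239 and 2216 CPM at 2.5 µM (1.43 ± 0.28, adjusted p = 0.00968). IGFBP3 was at 30.3, 76.2 and 47.7 CPM in controls and 124, 123 and 201 CPM at 2.5 µM (1.54 ± 0.26, adjusted p = 0.00693). IGFBP2 was at 19.4, 38.4 and 24.4 CPM in controls and 47.9, 54.4 and 66.2 CPM at 2.5 µM (1.03 ± 0.21, adjusted p = 0.0101). In each of them the controls were widely spread, the first lowest and the second highest, and all 2.5 µM libraries lay above the second control. FOXO1, the transcription factor that insulin restrains, went from 18.8, 21.96 and 17.96 to 31.5, 27.9 and 35.5 CPM (0.66 ± 0.12, adjusted p = 0.00825). IRS2 (0.45 ± 0.23, adjusted p = 0.224) and TXNIP (0.09 ± 0.34, adjusted p = 0.904) did not pass. In that list 3 genes rose without the first control, and without the third 2.5 µM library 5.

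Targets of ATF4, the factor that answers amino acid shortage and stress, rose in 11 of 39 cases, with 1 fall and a median of 0.20. ASNS, asparagine synthetase, stood at 49.8, 59.4 and 56.95 CPM in controls and 69.6, 95.6 and 116 CPM at 2.5 µM (0.74 ± 0.15, adjusted p = 0.00971). PHGDH, which opens serine synthesis, was at 86.3, 97.7 and 101 CPM in controls and 120.5, 134 and 149 CPM at 2.5 µM (0.50 ± 0.09, adjusted p = 0.00865). PSAT1, the next enzyme, was at 141, 151 and 153 CPM in controls and 173, 222 and 279 CPM at 2.5 µM (0.58 ± 0.13, adjusted p = 0.0160). TRIB3, a pseudokinase of this response, was at 109, 101 and 97.2 CPM in controls and 118, 130.4 and 194 CPM at 2.5 µM (0.49 ± 0.14, adjusted p = 0.0406). In all 4 the third 2.5 µM library was the highest and the first the lowest of its group, and the first still lay above every control. Calls among the ATF4 targets came to 2 higher and 0 lower without the first control (15 higher and 1 lower at an unadjusted p under 0.05 in edgeR) and to 4 higher and 0 lower without the third 2.5 µM library (15 higher and 2 lower). The medians were 0.22 and 0.17. ATF4 mRNA itself (-0.04 ± 0.10, adjusted p = 0.811) and DDIT3 (0.10 ± 0.16, adjusted p = 0.817) did not pass. Of 22 genes of serine and one-carbon metabolism 6 rose (1 without the first control and 1 without the third 2.5 µM library) and 1, MTRR, fell (-0.62 ± 0.11, adjusted p = 0.00792). Of 36 aminoacyl-tRNA synthetases 2 rose, IARS (0.35 ± 0.11) and PARS2 (1.00 ± 0.30), 5.56% of the list beside 6.02% of all tested genes. Calls among the synthetases came to 0 higher without the first control (3 higher at an unadjusted p under 0.05 in edgeR) and to 0 higher without the third 2.5 µM library (3 higher).

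EGR1 was 1 of 5 immediate early or feedback genes that fell among 34 tested, against 3 that rose. These were 14.7% and 8.82% of the list, beside 5.03% and 6.02% of all tested genes. Calls among the immediate early and feedback genes came to 1 higher and 1 lower without the first control and to 2 higher and 1 lower without the third 2.5 µM library. JUN, a subunit of AP-1, stood at 174, 143 and 138 CPM in controls and 122, 111 and 103 CPM at 2.5 µM (-0.44 ± 0.10, adjusted p = 0.0147), and IER5 was lower too (-1.07 ± 0.26, adjusted p = 0.0197). FOS (-0.50 ± 0.27, adjusted p = 0.250), MYC (0.18 ± 0.09, adjusted p = 0.201), DUSP6 (-0.17 ± 0.10, adjusted p = 0.278) and SPRY4 (-0.17 ± 0.12, adjusted p = 0.398) did not pass. DUSP5, a nuclear phosphatase of ERK, rose from 7.86, 7.12 and 7.95 to 15.5, 15.4 and 24.2 CPM (1.16 ± 0.18, adjusted p = 0.00586), in a direction opposite to EGR1 in the same libraries. EGR1 is a textbook target of serum response factor, which binds CArG boxes, and its promoter is shown because 2 boxes lie close to the start. The stretch is the sense strand of GRCh38.p14, chr5:138465364-138465415 (plus strand), with the boxes in capitals.
EGR1: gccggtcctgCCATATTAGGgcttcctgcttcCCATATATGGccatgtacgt
The first box begins 105 bases and the second 83 bases before the start site. A CArG box in the 250 bases before a start was present in 2 of 23 matched immediate early genes, EGR1 and SRF. Counted by gene, 129 of 8961 tested genes with an entry had one (1.44%), and counted by window, 407 of all 35116 (1.16%). Bases further upstream were not searched. Of 29 genes of the actin cytoskeleton, or known as targets of YAP or serum response factor, 7 rose, 1 without the first control and 2 without the third 2.5 µM library. CTGF stood at 135, 235 and 141 CPM in controls and 348, 255 and 442 CPM at 2.5 µM (1.02 ± 0.20, adjusted p = 0.00977). ANKRD1 was at 13.0, 28.7 and 15.4 CPM in controls and 40.6, 33.6 and 76.3 CPM at 2.5 µM (1.32 ± 0.33, adjusted p = 0.0209). ACTG1, cytoplasmic gamma-actin, was at 1896, 2043 and 2136 CPM in controls and 2900.1, 2757 and 3490.2 CPM at 2.5 µM (0.59 ± 0.10, adjusted p = 0.00727).

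Genes that answer BMP and TGF-beta rose in 8 of 21 cases (median 0.25). ID1, an inhibitor of differentiation factors, was at 84.1, 101 and 115 CPM in controls and 150.1, 177 and 217 CPM at 2.5 µM (0.85 ± 0.14, adjusted p = 0.00635). ID3 was at 10.5, 9.70 and 13.6 CPM in controls and 15.7, 22.6 and 29.5 CPM at 2.5 µM (0.95 ± 0.20, adjusted p = 0.0117). The iron hormone gene HAMP, a direct BMP target in liver, was weakly expressed at 1.99, 4.95 and 5.64 CPM in controls and 6.98, 13.8 and 18.6 CPM at 2.5 µM (1.67 ± 0.37, adjusted p = 0.0138). The ligand BMP4 was at 88.3, 97.5 and 103 CPM in controls and 125, 143 and 141 CPM at 2.5 µM (0.50 ± 0.09, adjusted p = 0.00770). All 4 had groups that did not overlap, and in ID1, ID3 and HAMP the third 2.5 µM library was the highest. SMAD7 did not pass (-0.07 ± 0.14, adjusted p = 0.784). Of the 21, 3 rose without the first control, and without the third 2.5 µM library 5. Of 17 NF-kB genes 3 fell, 17.6% of the list beside 5.03% of all tested genes. Among them NFKBIA, the inhibitor that the factor induces, stood at 259, 126 and 209.6 CPM in controls and 108, 146 and 80.4 CPM at 2.5 µM (-0.81 ± 0.22, adjusted p = 0.0288), with the second control inside the range of the 2.5 µM libraries. BCL3 (-0.88 ± 0.22) and NFKB1 (-0.33 ± 0.10) were the others. Calls among the NF-kB genes came to 0 lower without the first control (3 lower at an unadjusted p under 0.05 in edgeR) and to 0 lower without the third 2.5 µM library (3 lower). Of 29 chaperones 5 fell and 1 rose, 17.2% and 3.45% of the list beside 5.03% and 6.02% of all tested genes. Calls among the chaperones came to 0 higher and 0 lower without the first control (1 higher and 7 lower at an unadjusted p under 0.05 in edgeR) and to 0 higher and 0 lower without the third 2.5 µM library (1 higher and 6 lower). HSPA1A (-0.72 ± 0.19, adjusted p = 0.0249) and HSPA1B (-0.69 ± 0.20, adjusted p = 0.0371) are near-identical copies that may share reads, and in both the first 2.5 µM library lay within the range of the controls. HSPH1 was at 552, 429 and 374 CPM in controls and 250.3, 353 and 241 CPM at 2.5 µM (-0.68 ± 0.15, adjusted p = 0.0130). HSPA8 (0.12 ± 0.10, adjusted p = 0.487) and HSPD1 (0.14 ± 0.09, adjusted p = 0.346) did not pass.

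**Figure D4:**
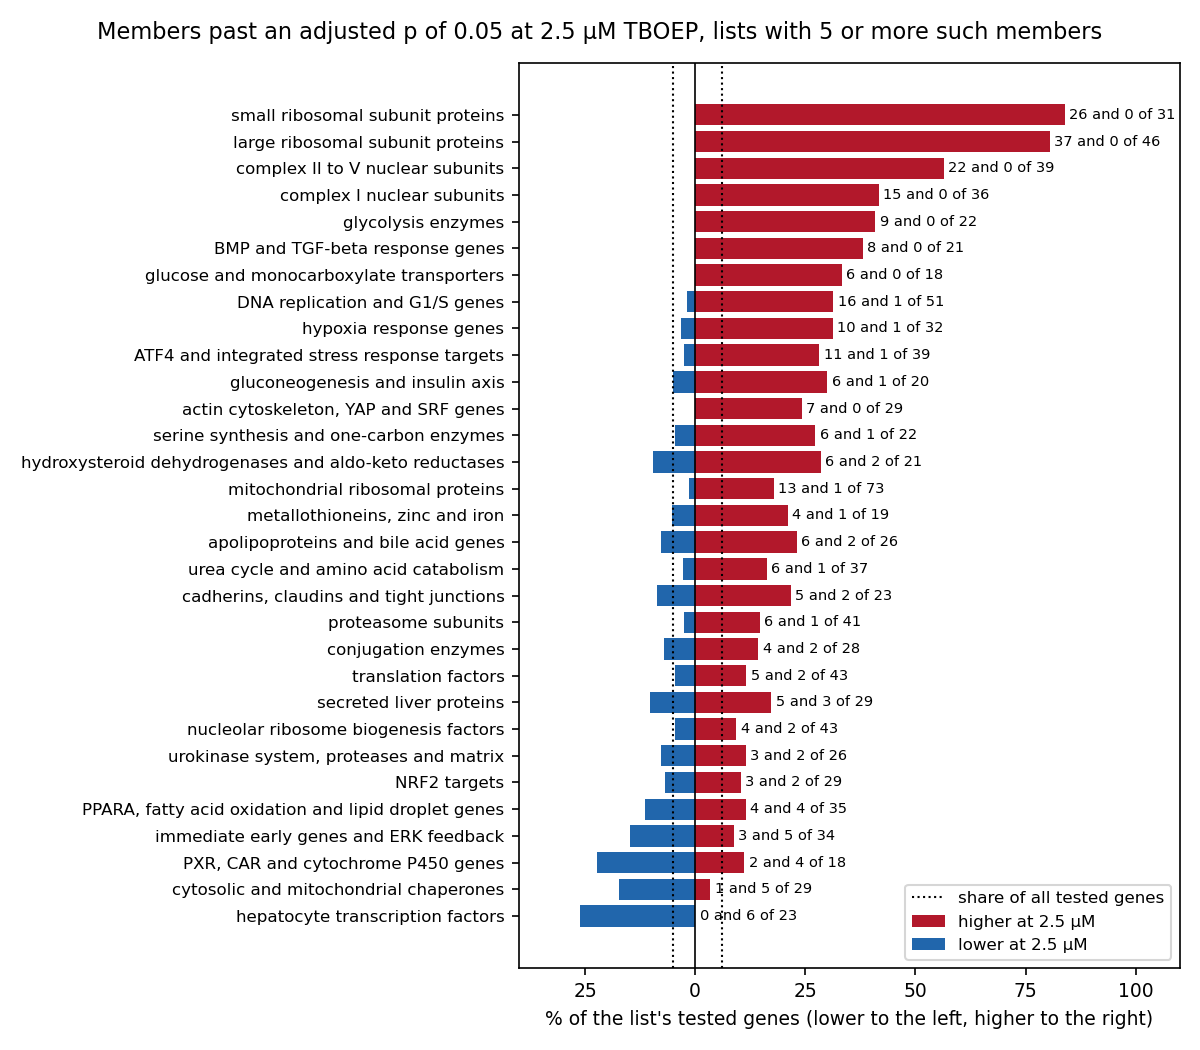
Share of the tested members of each gene list (rows) that were higher (right) or lower (left) at 2.5 µM than in the controls at an adjusted p of 0.05 (x axis, %), for lists with 5 or more such members; labels give the counts. Dotted lines mark the shares over all tested genes, 6.02% and 5.03%; the ribosomal lists reach 26 of 31 and 37 of 46, and hepatocyte transcription factors have 6 falls among 23.

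Of 23 hepatocyte transcription factors 6 fell and the rest did not pass, with a median of -0.05. NR1H4, the bile acid receptor FXR, with 63.7% of its reads in introns, stood at 212, 116 and 163 CPM in controls and 105, 108 and 65.8 CPM at 2.5 µM (-0.79 ± 0.19, adjusted p = 0.0190). TBX3 was at 108, 121 and 105 CPM in controls and 75.2, 91.3 and 77.6 CPM at 2.5 µM (-0.44 ± 0.10, adjusted p = 0.0148). Of the 6, 2 fell without the first control, and without the third 2.5 µM library 1. HNF4A (0.12 ± 0.09, adjusted p = 0.390) and FOXA2 (0.08 ± 0.09, adjusted p = 0.586) did not pass. Of 29 secreted liver proteins 5 rose and 3 fell, 17.2% and 10.3% of the list beside 6.02% and 5.03% of all tested genes. Calls among the secreted liver proteins came to 3 higher and 0 lower without the first control (5 higher and 2 lower at an unadjusted p under 0.05 in edgeR) and to 3 higher and 0 lower without the third 2.5 µM library (6 higher and 4 lower). AHSG, fetuin-A, was at 5057, 4961 and 5370.0 CPM in controls and 7769, 7296 and 8864 CPM at 2.5 µM (0.64 ± 0.11, adjusted p = 0.00670). TTR, transthyretin, was at 135, 134 and 141 CPM in controls and 186, 184 and 199 CPM at 2.5 µM (0.47 ± 0.09, adjusted p = 0.00825). Both were higher in each 2.5 µM library. Alpha-fetoprotein, AFP, was at 2483, 1826 and 2224 CPM in controls and 1610.4, 1579.5 and 1121 CPM at 2.5 µM (-0.60 ± 0.14, adjusted p = 0.0172). The antiprotease SERPINA3 was at 179.8, 95.8 and 153 CPM in controls and 81.0, 81.7 and 36.8 CPM at 2.5 µM (-1.04 ± 0.25, adjusted p = 0.0194). Both were lower. Albumin, ALB, did not pass: the controls held 42736, 28515 and 36118 CPM and the 2.5 µM libraries 29468, 27638 and 21507 CPM (-0.45 ± 0.17, adjusted p = 0.0909), so the second control fell within the range of the exposed libraries. Of 41 genes of complement, coagulation and the acute phase 4 fell, 9.76% of the list beside 5.03% of all tested genes. Calls among the complement and coagulation genes came to 0 lower without the first control (6 lower at an unadjusted p under 0.05 in edgeR) and to 0 lower without the third 2.5 µM library (8 lower). CFI was at 567, 519 and 579.5 CPM in controls and 450.03, 449.7 and 378 CPM at 2.5 µM (-0.38 ± 0.09, adjusted p = 0.0209). CPB2 was at 147, 120.3 and 107 CPM in controls and 90.6, 98.99 and 69.9 CPM at 2.5 µM (-0.51 ± 0.12, adjusted p = 0.0201). In whole cultures, fewer cells of a kind and less RNA per cell cannot be told apart.

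Of 26 apolipoprotein and bile acid genes 6 rose and 2 fell, 23.1% and 7.69% of the list beside 6.02% and 5.03% of all tested genes. Calls among the apolipoprotein and bile acid genes came to 3 higher and 0 lower without the first control (8 higher and 2 lower at an unadjusted p under 0.05 in edgeR) and to 4 higher and 0 lower without the third 2.5 µM library (8 higher and 4 lower). APOM, the carrier of sphingosine 1-phosphate, stood at 79.5, 97.9 and 85.4 CPM in controls and 150.2, 189.5 and 207 CPM at 2.5 µM (1.05 ± 0.13, adjusted p = 0.00488). APOA2 was at 1179.9, 1445 and 1471 CPM in controls and 1852, 2139 and 2285 CPM at 2.5 µM (0.62 ± 0.11, adjusted p = 0.00693). APOC1 was at 94.8, 117 and 93.9 CPM in controls and 138, 172 and 178 CPM at 2.5 µM (0.67 ± 0.12, adjusted p = 0.00728). APOB, the large scaffold of very low density lipoprotein, fell from 16709, 14120.0 and 15389 to 11061, 12984 and 11745 CPM (-0.37 ± 0.10, adjusted p = 0.0342). APOA1, the main protein of high density lipoprotein, did not pass (0.33 ± 0.10, adjusted p = 0.0511). Of 27 cholesterol genes 1 fell, STARD4 (-0.50 ± 0.13, adjusted p = 0.0286), 3.70% of the list beside 5.03% of all tested genes. Of 26 genes of fatty acid synthesis 1 rose and 2 fell, 3.85% and 7.69% of the list beside 6.02% and 5.03%. Calls among the cholesterol genes came to 0 lower without the first control (1 lower at an unadjusted p under 0.05 in edgeR) and to 0 lower without the third 2.5 µM library (1 lower). Calls among the fatty acid synthesis genes came to 0 higher and 0 lower without the first control (1 higher and 3 lower at an unadjusted p under 0.05 in edgeR) and to 0 higher and 0 lower without the third 2.5 µM library (1 higher and 4 lower). Of 35 genes of PPARA, fatty acid oxidation and lipid droplets 4 rose and 4 fell, each 11.4% of the list beside 6.02% and 5.03%. Calls among the oxidation and droplet genes came to 1 higher and 2 lower without the first control and to 2 higher and 2 lower without the third 2.5 µM library. Among the falls were BDH1, of ketone body metabolism, at 237, 143 and 189 CPM in controls and 120.1, 96.02 and 58.98 CPM at 2.5 µM (-1.01 ± 0.19, adjusted p = 0.00891) with 63.5% of its reads in introns, and ACADVL, the dehydrogenase for very long chains, at 239, 235 and 222 CPM in controls and 199, 183 and 166 CPM at 2.5 µM (-0.34 ± 0.08, adjusted p = 0.0201). ETFB, which takes electrons from these dehydrogenases, was higher at 244, 242 and 254 CPM in controls and 315, 379 and 395 CPM at 2.5 µM (0.55 ± 0.09, adjusted p = 0.00635). PLIN2, a coat protein of lipid droplets, was higher at 625, 698 and 666 CPM in controls and 772, 851 and 921 CPM at 2.5 µM (0.35 ± 0.09, adjusted p = 0.0211).

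Of 18 cytochrome P450 genes and their receptors 2 rose and 4 fell, 11.1% and 22.2% of the list beside 6.02% and 5.03% of all tested genes. Calls among the cytochrome P450 genes and receptors came to 0 higher and 0 lower without the first control (2 higher and 4 lower at an unadjusted p under 0.05 in edgeR) and to 1 higher and 1 lower without the third 2.5 µM library. CYP24A1, which degrades active vitamin D, stood at 10.7, 13.9 and 10.8 CPM in controls and 19.6, 22.03 and 37.6 CPM at 2.5 µM (1.05 ± 0.21, adjusted p = 0.00983). CYP3A7, the fetal form, was at 44.7, 11.3 and 24.4 CPM in controls and 8.99, 9.02 and 4.85 CPM at 2.5 µM (-1.75 ± 0.36, adjusted p = 0.0101). CYP3A5 was at 88.5, 35.02 and 50.02 CPM in controls and 27.5, 30.6 and 26.7 CPM at 2.5 µM (-1.06 ± 0.25, adjusted p = 0.0181). The CYP3A members are alike in sequence and may share reads, and their first control was the highest library. NR1I2, the receptor PXR, did not pass (0.50 ± 0.18, adjusted p = 0.0864). CYP1A1, the standard target of the dioxin receptor, fell from 32.1, 9.89 and 24.1 to 9.08, 12.2 and 3.64 CPM (-1.26 ± 0.34, adjusted p = 0.0283), although its second library lay above the second control. Of 6 tested genes of the dioxin receptor pathway 1 rose, CYP2S1, and 1 fell, each 16.7% of the list. In the fits without the first control and without the third 2.5 µM library, 0 of them were called. At an unadjusted p under 0.05 in edgeR the former held 0 higher and 1 lower, the latter 1 higher and 1 lower. UGT2B4, a glucuronosyltransferase, was at 56.1, 31.9 and 36.7 CPM in controls and 24.003, 20.1 and 12.9 CPM at 2.5 µM (-1.07 ± 0.20, adjusted p = 0.00864). The glutathione transferase GSTO1 was at 48.02, 55.8 and 54.9 CPM in controls and 74.5, 94.1 and 111 CPM at 2.5 µM (0.80 ± 0.14, adjusted p = 0.00792). Among 21 esterases 2 rose and 2 fell, each 9.52% of the list beside 6.02% and 5.03% of all tested genes. PNPLA6, a serine hydrolase known as a target of certain organophosphates, was at 59.97, 32.8 and 44.9 CPM in controls and 24.003, 27.8 and 19.4 CPM at 2.5 µM (-0.93 ± 0.19, adjusted p = 0.00983). ESD, esterase D, was at 64.6, 68.1 and 72.9 CPM in controls and 94.2, 100.02 and 98.2 CPM at 2.5 µM (0.51 ± 0.09, adjusted p = 0.00792). CES1, the main liver carboxylesterase (-0.18 ± 0.09, adjusted p = 0.206), and PON1 (0.42 ± 0.30, adjusted p = 0.401) did not pass. Calls among the esterases came to 1 higher and 0 lower without the first control (2 higher and 2 lower at an unadjusted p under 0.05 in edgeR) and to 1 higher and 1 lower without the third 2.5 µM library. Of 29 NRF2 targets 3 rose and 2 fell, 10.3% and 6.90% of the list beside 6.02% and 5.03% of all tested genes. HMOX1, heme oxygenase, was at 20.7, 30.1 and 32.3 CPM in controls and 44.5, 43.8 and 63.02 CPM at 2.5 µM (0.85 ± 0.17, adjusted p = 0.00948), and NQO1 did not pass (-0.09 ± 0.10, adjusted p = 0.616). Calls among the NRF2 targets came to 0 higher and 0 lower without the first control (5 higher and 2 lower at an unadjusted p under 0.05 in edgeR) and to 1 higher and 0 lower without the third 2.5 µM library (5 higher and 2 lower).

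Of 17 betaine, osmolyte and taurine genes 1 rose, 3 fell and 13 did not pass, with a median of -0.12. The rise and the falls were 5.88% and 17.6% of the list, beside 6.02% and 5.03% of all tested genes. Calls among the osmolyte genes came to 0 higher and 1 lower without the first control (1 higher and 4 lower at an unadjusted p under 0.05 in edgeR) and to 0 higher and 1 lower without the third 2.5 µM library (1 higher and 4 lower). SLC6A12, the betaine carrier (chr12:299243-323736), stood at 503, 101 and 259.9 CPM in controls and 28.1, 71.02 and 10.1 CPM at 2.5 µM (-2.84 ± 0.54, adjusted p = 0.00864). AKR1B1, aldose reductase, which makes sorbitol, was at 671, 119 and 295 CPM in controls and 73.1, 142 and 61.0 CPM at 2.5 µM (-1.94 ± 0.43, adjusted p = 0.0143). In both genes the first control was far above the second, and in AKR1B1 the second control, at 119 CPM, lay below the second 2.5 µM library, at 142 CPM. Without the first control AKR1B1 had an adjusted p of 0.0828 and SLC6A12 of 0.0374. NFAT5, the tonicity regulator of both (-0.33 ± 0.11, adjusted p = 0.0736), and SGK1 (-0.12 ± 0.13, adjusted p = 0.607) did not pass. Of 37 genes of the urea cycle and amino acid breakdown 6 rose and 1 fell (median 0.32). Calls among the urea cycle and breakdown genes came to 1 higher and 0 lower without the first control (9 higher and 1 lower at an unadjusted p under 0.05 in edgeR) and to 2 higher and 0 lower without the third 2.5 µM library (13 higher and 1 lower). HPD, of tyrosine breakdown, stood at 136, 172 and 168 CPM in controls and 230.5, 237 and 268 CPM at 2.5 µM (0.63 ± 0.10, adjusted p = 0.00635). ARG1, arginase, was at 30.6, 16.03 and 18.7 CPM in controls and 14.1, 14.2 and 10.5 CPM at 2.5 µM (-0.74 ± 0.22, adjusted p = 0.0411).

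The low and the high concentration were each tested against the same control libraries, so those changes are set side by side. Of the 1425 genes called at 2.5 µM, 1241 also passed at 125 µM against control with the same sign. The shared controls tie the 2 tests together, so this overlap is not independent support. Whether the doses differed was judged only by the contrast of 125 µM with 2.5 µM, which holds no control. That contrast differed for 1925 genes (14.9%) and for 338 of the 1425 called at 2.5 µM. Of 151 such rises, 116 were higher still at 125 µM and 35 were higher at 2.5 µM, and of 187 such falls, 169 were lower still at 125 µM and 18 were lower at 2.5 µM. EGR1 belongs to the 18: it stood at 24.8, 26.6 and 24.2 CPM at 125 µM, next to the controls (log2 fold change 0.08 ± 0.14 against control; adjusted p = 5.75e-05 between doses). EDN1 was at 11.8, 14.4 and 10.6 CPM at 125 µM (0.38 ± 0.23; 0.00184) and SLC2A3 at 626, 849 and 619.6 CPM (0.72 ± 0.19; 0.0217). BMP4, at 105, 103 and 97.3 CPM (0.09 ± 0.09; 0.00652), and BNIP3, at 302, 352 and 344 CPM (-0.12 ± 0.11; 0.00296), were likewise highest at the low concentration.

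With opposite signs against control at the 2 doses, each past the threshold, there were 4 genes. DKK1, a secreted Wnt inhibitor, stood at 34.5, 33.04 and 41.3 CPM in controls, at 48.4, 56.2 and 53.3 CPM at 2.5 µM (0.55 ± 0.11, adjusted p = 0.00891) and at 26.3, 26.4 and 26.1 CPM at 125 µM (-0.45 ± 0.11). RAB11FIP4, an effector in recycling endosomes, was at 88.7, 109 and 107, then 149.6, 114 and 148 (0.43 ± 0.11, adjusted p = 0.0258), then 73.8, 71.1 and 76.3 CPM (-0.46 ± 0.12). TRIB1, a pseudokinase tied to plasma lipids, ran the other way with 96.7, 90.03 and 91.1, then 66.5, 79.8 and 77.6 (-0.32 ± 0.09, adjusted p = 0.0356), then 119.7, 113 and 114 CPM (0.32 ± 0.09). ANTXR2, an anthrax toxin receptor, went from 30.8, 25.9 and 27.96 to 20.7, 22.6 and 19.8 (-0.42 ± 0.13, adjusted p = 0.0448) and to 36.5, 37.3 and 46.98 CPM (0.47 ± 0.12). The doses differed in all 4 (edgeR, adjusted p from 5.65e-05 to 3.63e-04). The 4 were picked for their opposite signs, so a difference between the doses was close to given and adds no support. Without the first control the change at 2.5 µM had an adjusted p of 0.0496 in DKK1, 0.141 in RAB11FIP4, 0.151 in TRIB1 and 0.235 in ANTXR2.

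Among lists, beside 14.9% of all tested genes, the doses differed in 19 of 45 genes of G2 and mitosis, each lower at 125 µM (medians 0.18 at 2.5 µM and -0.12 at 125 µM). In 12 of 22 glycolysis enzymes they differed with 4 higher and 8 lower at 125 µM (medians 0.24 and 0.05). In 17 of 32 hypoxia genes 6 were higher and 11 lower at 125 µM, and in 18 of 29 actin, YAP and serum response factor genes 15 were higher and 3 lower. The ribosomal protein genes had medians of 0.56 for the small and 0.61 for the large subunit at 125 µM, beside 0.55 and 0.53 at 2.5 µM. Of the stronger responses at 125 µM, ASB2 reached 26.7, 34.2 and 33.8 CPM (3.38 ± 0.19; 2.14e-05), DUSP5 43.3, 54.5 and 51.8 CPM (2.70 ± 0.17; 3.17e-05) and MT2A, a metallothionein, 145, 218 and 135 CPM against 51.8, 51.03 and 72.3 at 2.5 µM and 33.2, 31.5 and 44.1 in controls (0.66 ± 0.19, adjusted p = 0.0403 at 2.5 µM). PTAFR was at 21.2, 31.95 and 24.6 CPM at 125 µM, and its difference between the doses did not pass (adjusted p = 0.440), as was the case for LOX (0.795), CREB3L3 (0.804) and APOM (0.921).

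**Figure D5:**
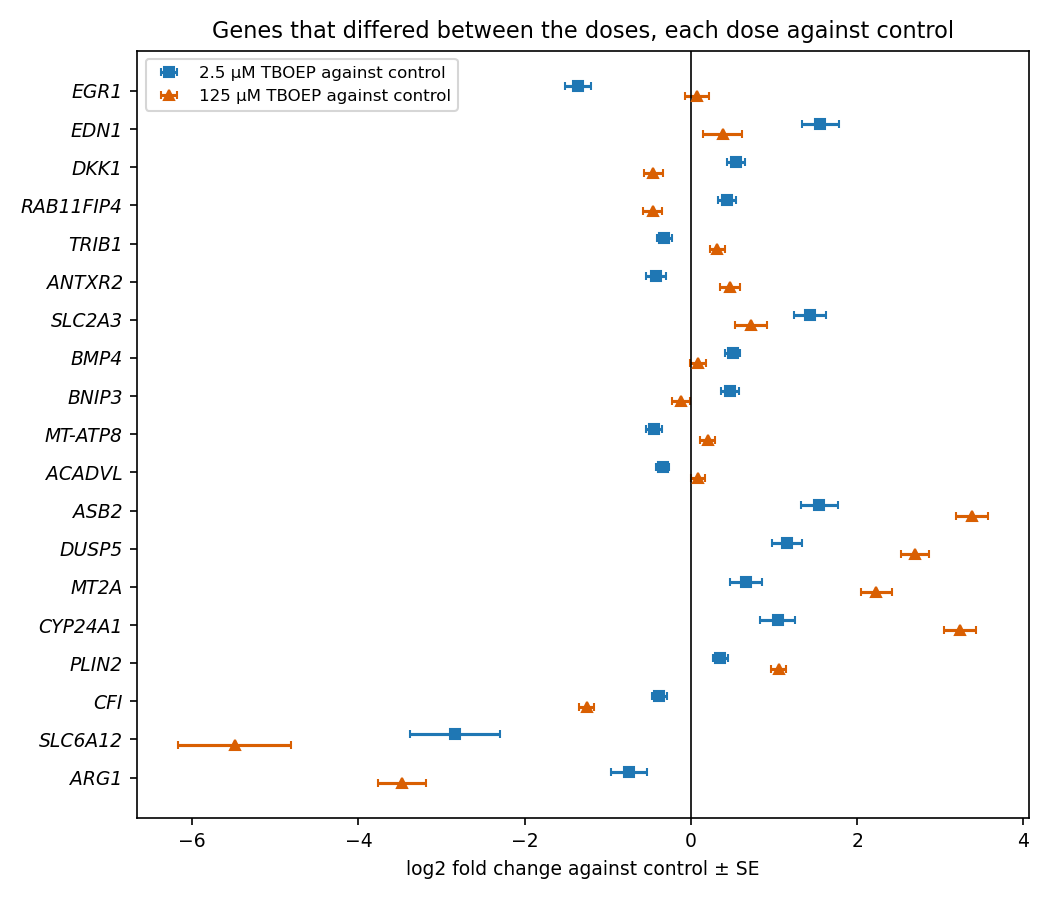
Log2 fold change against control ± SE (x axis) at 2.5 µM (squares) and 125 µM (triangles) for 19 genes whose levels differed between the doses at an adjusted p of 0.05; both changes use the same 3 controls. EGR1 lies at -1.36 at 2.5 µM and at 0.08 at 125 µM, and DKK1, RAB11FIP4, TRIB1 and ANTXR2 change sign.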

How the data were processed

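Polyadenylated RNA was sequenced from 9 HepG2 cultures as stranded paired reads. Per the series' design text, the authors aligned reads to hg19 and assigned them to genes with CLC Genomics Workbench; whether counting used strand is not given in the sources used here, so genes that overlap another tested gene (388 of the 1425 called) are uncertain, among those named AC024592.9, ACADVL, ANGPTL2, APOA2, APOM, ARG1, CCNA2, CPB2, DDIT3, EEF1B2, EIF6, FUT3, GAPDH, GAS5, HSPA1A, HSPD1, LOX, LOXL3, MCM2, MRPS6, MT-ATP8, MTRR, PNPLA6, PON1, RPL10, RPL31, RPL4, RPS18, SERPINA3, SLC16A3, SLC16A6, SNHG16, SORL1, SPRY4, TP53INP1, TPI1 and TYMS. The deposited files hold read counts for each gene, also split by exon, intron and unique mapping, RPKM, and a quantile-normalised signal by the authors. Replicates were separate cultures, per the labels' protocols.

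Total gene reads were fitted with edgeR 4.0.16 in R 4.3.3 (filterByExpr, TMM, glmQLFit and glmQLFTest, 3 groups in 1 fit, two-sided, Benjamini-Hochberg, threshold 0.05; biological coefficient of variation 10.0%). Alternatives were DESeq2 1.42.0, limma 3.58.1 on log2(RPKM + 0.5) and log2(normalised signal + 1), other scalings, filters and reads, a replicate block, and libraries left out. The scripts were tested on simulated counts. Start sites and promoters come from RefSeq (GRCh38.p14), matched by symbol; gene positions are hg19. Genes were named by rule: the 12 rises and 12 falls of smallest adjusted p with at least 5 CPM, the 10 of largest fold each way with at least 1 CPM (both with groups that do not overlap), up to 5 called members of each of 50 lists with fixed reference members, and genes called with opposite signs at the 2 doses. Some genes that the rule names are not reported here. The comparison, the lists and the rule were chosen with earlier results of these data known.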

Additional observations from a re-analysis of the deposited data

How the results depend on the processing

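The count of genes past the threshold at 2.5 µM, 1425 with 776 higher and 649 lower, came to 731 (462 and 269) when the 125 µM libraries were left out of the fit, to 216 (171 and 45) with limma on RPKM, to 227 (170 and 57) with limma on the quantile-normalised values, and to 60 (53 and 7) without the first control and the third 2.5 µM library. Against a change of 1.5-fold, edgeR's glmTreat left 1 (1 higher and 0 lower), with 261 higher and 222 lower at an unadjusted p under 0.05; DESeq2 has no such row here, and against no change it called 1236 (699 and 537). Without a filter on low counts 1024 genes were lower (2092 in all). Leaving out 1 library gave 213 to 2050 genes, 174 to 1005 higher and 39 to 1045 lower. Leaving out the first control (213), the third 2.5 µM library (468) or the third control (707) moved the total by over 1.5 times, and leaving out the second control raised the falls to 1045. The cause of these shifts was not tested, except that the fits with fewer libraries hold fewer samples. Under DESeq2's size factors (1437), upper-quartile scaling (1470), exon reads (1631), unique reads (1426), a stricter filter (1431) and robust dispersion (1240) the total stayed within 1.5 times. Of the 333 genes named by the rule, 105 differed between the doses, 54 with limma on RPKM, 52 on quantile-normalised values and 15 against 1.5-fold. Same-numbered control and 2.5 µM libraries deviated together with correlations of 0.090, -0.241 and 0.102, so the numbers were not taken as a pairing; with the number as a replicate block 1274 genes passed (706 and 568). Depth limits the third 2.5 µM library most, where 3 reads are 1.21 CPM.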

Other observations

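Further lists gave changes at 2.5 µM that the report does not describe. Of 21 hydroxysteroid dehydrogenases and aldo-keto reductases 6 rose and 2 fell, 28.6% and 9.52% of the list beside 6.02% and 5.03% of all tested genes. Calls among the dehydrogenases and reductases came to 1 higher and 0 lower without the first control (7 higher and 2 lower at an unadjusted p under 0.05 in edgeR) and to 5 higher and 0 lower without the third 2.5 µM library (7 higher and 3 lower). The aldehyde reductase AKR1A1 stood at 43.1, 42.1 and 42.3 CPM in controls and 57.2, 58.7 and 54.1 CPM at 2.5 µM (0.42 ± 0.09, adjusted p = 0.0108, edgeR), with every 2.5 µM library above every control, and AKR1D1, the reductase of bile acid synthesis, at 5.14, 7.52 and 6.41 CPM in controls and 11.4, 11.5 and 8.48 CPM at 2.5 µM (0.81 ± 0.21, adjusted p = 0.0257). AKR1B10, which reduces retinal, fell with overlapping groups, from 952, 684 and 917 to 544, 728 and 464 CPM (-0.55 ± 0.16, adjusted p = 0.0378). Of 23 cadherin, claudin and junction genes 5 rose and 2 fell, 21.7% and 8.70% of the list beside 6.02% and 5.03% of all tested genes. Calls among the junction genes came to 1 higher and 0 lower without the first control (6 higher and 4 lower at an unadjusted p under 0.05 in edgeR) and to 0 higher and 1 lower without the third 2.5 µM library (6 higher and 4 lower). The tight junction protein CLDN1 was at 32.3, 61.7 and 55.7 CPM in controls and 77.6, 78.7 and 102 CPM at 2.5 µM (0.80 ± 0.18, adjusted p = 0.0153) and E-cadherin, CDH1, at 3.88, 5.14 and 5.64 CPM in controls and 11.9, 6.51 and 9.29 CPM at 2.5 µM (0.97 ± 0.25, adjusted p = 0.0256). Around urokinase, whose own gene PLAU fell, the protease inhibitor SERPINE2 rose from 43.7, 52.8 and 57.5 to 72.4, 87.6 and 108 CPM (0.78 ± 0.15, adjusted p = 0.00864).

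Of 30 nuclear receptors 1 rose and 3 fell, 3.33% and 10% of the list beside 6.02% and 5.03% of all tested genes. Calls among the nuclear receptors came to 0 higher and 0 lower without the first control (1 higher and 3 lower at an unadjusted p under 0.05 in edgeR) and to 0 higher and 0 lower without the third 2.5 µM library (2 higher and 3 lower). PPARG, a receptor of fat storage, stood at 55.5, 63.3 and 59.5 CPM in controls and 72.97, 75.9 and 93.7 CPM at 2.5 µM (0.42 ± 0.10, adjusted p = 0.0198), and the thyroid hormone receptor THRB at 44.7, 42.3 and 38.2 CPM in controls and 33.8, 29.9 and 29.1 CPM at 2.5 µM (-0.43 ± 0.10, adjusted p = 0.0202). Of 34 genes of lysosome and autophagy 2 rose and 1 fell, 5.88% and 2.94% of the list beside 6.02% and 5.03% of all tested genes. Calls among the lysosome and autophagy genes came to 1 higher and 0 lower without the first control (5 higher and 4 lower at an unadjusted p under 0.05 in edgeR) and to 1 higher and 0 lower without the third 2.5 µM library (4 higher and 6 lower). The protease CTSH was at 94.4, 139 and 121 CPM in controls and 199.7, 188 and 236 CPM at 2.5 µM (0.82 ± 0.15, adjusted p = 0.00778) and the proton pump subunit ATP6V1A at 107, 97.5 and 89.02 CPM in controls and 73.8, 77.99 and 67.9 CPM at 2.5 µM (-0.41 ± 0.09, adjusted p = 0.0143). MALAT1, a nuclear noncoding RNA, fell from 319.6, 240.01 and 219 to 163, 174 and 135 CPM (-0.71 ± 0.14, adjusted p = 0.00891), with 84.7% of its reads in annotated introns. Of 41 proteasome subunits 6 rose and 1 fell, 14.6% and 2.44% of the list beside 6.02% and 5.03% of all tested genes. Calls among the proteasome subunits came to 1 higher and 0 lower without the first control (10 higher and 2 lower at an unadjusted p under 0.05 in edgeR) and to 1 higher and 0 lower without the third 2.5 µM library (9 higher and 1 lower). Of those that rose, PSMB3 was at 63.95, 57.4 and 59.8 CPM in controls and 74.7, 96.6 and 88.1 CPM at 2.5 µM (0.51 ± 0.10, adjusted p = 0.00948). Among 19 clock genes edgeR's test called 0, with 2 higher and 5 lower at an unadjusted p under 0.05 and 0 by DESeq2.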
